A study of Mus musculus with 9 samples.

Results

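The thrombospondin genes Thbs1, Thbs2, Thbs3 and Thbs4 were followed in the right ventricle of mice with and without monocrotaline, and Thbs1 stood far apart from the other members. The 4 genes were chosen by name among 18820 genes measured, and the choice was made with their values known, so their levels and differences are given as a description without tests. Each had 1 probe set on the array that was annotated to that gene alone (10474700 for Thbs1, 10447951 for Thbs2, 10493449 for Thbs3 and 10411082 for Thbs4), and none had a further probe set shared with another gene. Thbs1 was 3.03 higher on the log2 scale in MCT + NI mice and 3.20 higher in MCT mice than in sham mice. The differences of Thbs2, Thbs3 and Thbs4 from sham lay between -0.12 and 0.29.

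Thrombospondins are secreted, calcium-binding glycoproteins of the extracellular matrix that are called matricellular because they act on cells and on other matrix proteins more than they serve as scaffold. Thbs1 and Thbs2 form trimers and carry type 1 repeats, the modules through which they bind the receptor CD36 and restrain the growth of vessels. Thbs1 also binds CD47 and releases TGF-beta from its latent complex. Thbs3, Thbs4 and the cartilage protein Comp form pentamers and lack these repeats. In the mouse heart, Thbs1 and Thbs4 are known to be induced by pressure load, and Thbs4 has been tied to the endoplasmic reticulum stress response through the sensor Atf6.

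The samples were right ventricles of 9 female C57BL/6 mice, 3 per group and 1 array per mouse. MCT + NI mice (numbers 615, 617 and 619) received monocrotaline and an isocaloric diet enriched in fish oil, oligosaccharides, protein and its amino acid leucine. MCT mice (640, 641 and 644) received monocrotaline, a plant alkaloid that injures the vessels of the lung, as a weekly subcutaneous dose of 600 mg/kg for 8 weeks from 10 weeks of age, with a standard AIN-93M diet. Sham mice (620, 624 and 625) received saline with that standard diet, and no group received the NI diet without monocrotaline. The labels give MCT + NI mice the same dose, weeks of injection and starting age as MCT mice. Sham mice have the same weeks of injection and starting age in the labels. In the methods the mice are aged 8 weeks, at a point not stated. The methods describe the samples as matched for disease severity, without saying whether within or between groups. The spread within a group may thus be narrower than among all treated mice. If MCT + NI and MCT mice were matched to each other, the difference between them may also be smaller. Values are log2 intensities after robust multi-array analysis, in which the median of all probe sets of an array lay between 4.77 and 4.79. They rank mice within a gene but do not rank genes against each other.

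Marker genes of heart tissue were examined. The general cardiomyocyte markers do not tell ventricle from atrium, so they cannot check the label of the right ventricle. The mean of 7 cardiomyocyte markers lay between 12.54 and 12.59 in all mice, including Tnnt2, a thin filament protein, at 13.03 or above. Transcripts of the atrium differed within the treated groups and between treated and sham mice. The differences of 7 atrial markers between MCT and sham mice ranged from -5.48 to -1.08 on the log2 scale (median -2.64). None of them passed an adjusted p of 0.05 in limma. Myl7, the atrial regulatory light chain, had 9.79, 5.21 and 3.92 in MCT + NI mice 615, 617 and 619, 3.07, 3.66 and 11.40 in MCT mice 640, 641 and 644, and 10.55, 11.77 and 11.57 in sham mice 620, 624 and 625. The high mice were thus all sham mice, MCT mouse 644 and MCT + NI mouse 615. Atrial content was therefore partly confounded with treatment, and differences between treated and sham mice cannot be fully told apart from it. The mean of 7 atrial markers was also used as a covariate.

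Thbs1 had 8.16, 8.18 and 8.02 in MCT + NI mice 615, 617 and 619, 8.49, 8.09 and 8.31 in MCT mice 640, 641 and 644, and 5.12, 4.96 and 5.20 in sham mice 620, 624 and 625. Every treated mouse was far above every sham mouse, and the MCT + NI and MCT mice overlapped. By any gap, large or small, all MCT mice were above all sham mice for 11.7% of all genes, and all MCT + NI mice for 10.7%. The means were 8.12 ± 0.092 in MCT + NI, 8.30 ± 0.20 in MCT and 5.09 ± 0.12 in sham mice (SD, n = 3 each). Between single mice of the MCT and sham groups the difference ranged from 2.88 to 3.53, and between MCT + NI and sham mice from 2.81 to 3.22. In bulk tissue, more cells of a type and more RNA per cell cannot be told apart.

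**Figure D1:**
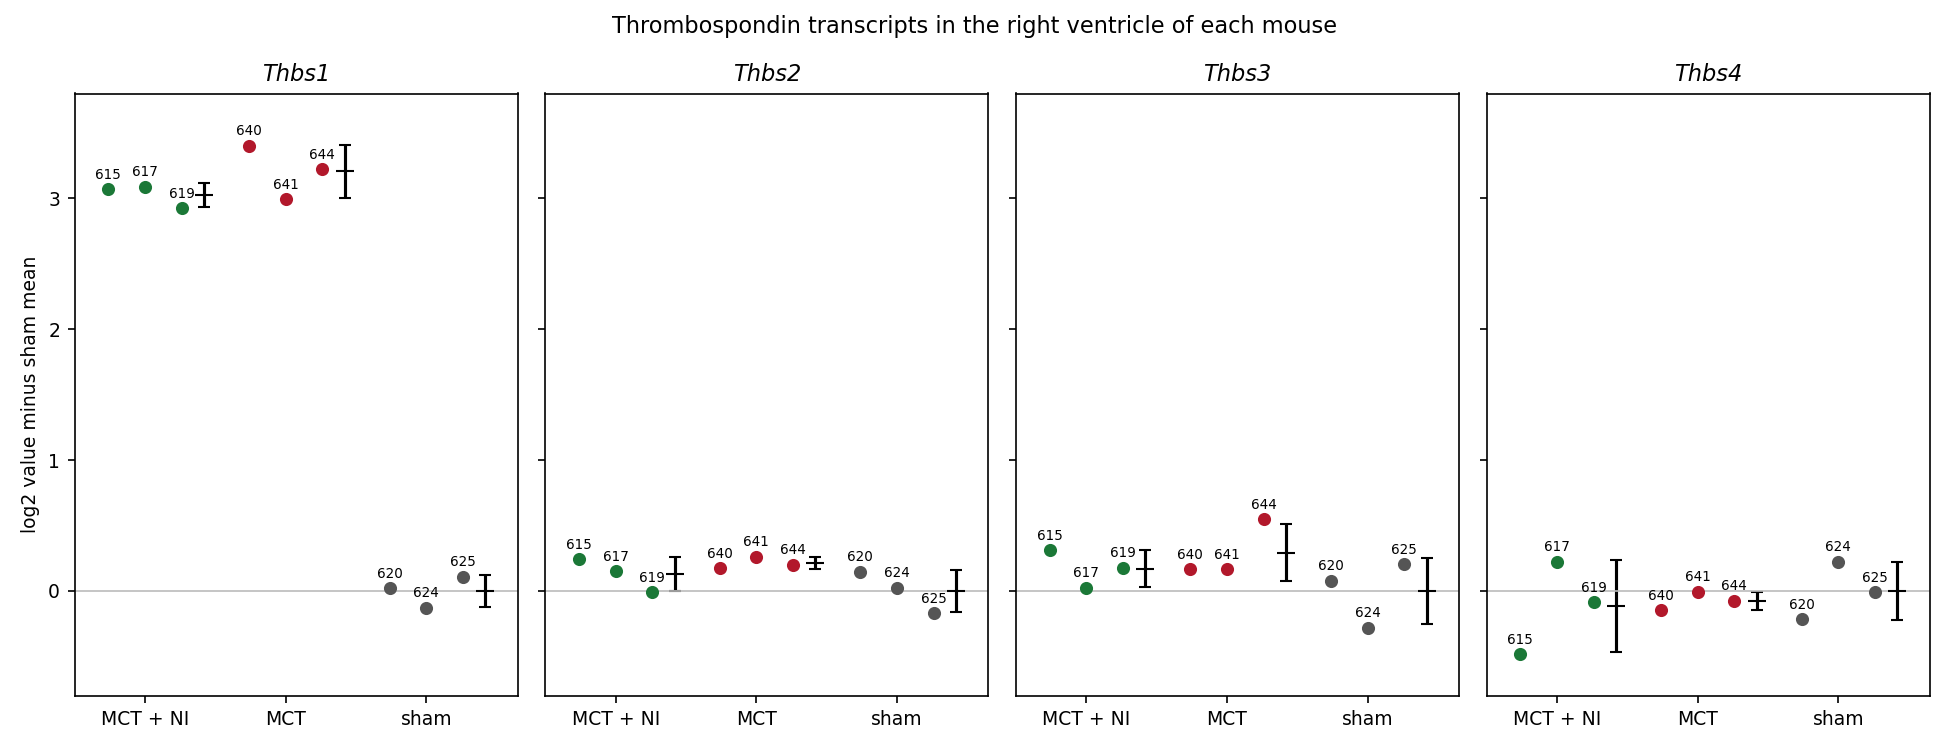
Log2 value of each thrombospondin gene in each mouse minus the mean of the 3 sham mice (vertical axis, log2 units), with the mouse number above each point and the group mean ± SD beside the points. Thbs1 was 2.92 or more above the sham mean in every MCT + NI and MCT mouse, whereas no value of the other members lay further than 0.55 from it.

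The difference of Thbs1 between MCT and sham mice was 3.20 ± 0.106 (SE) with a 95% interval of 2.96 to 3.44, or 9.22-fold. Between MCT + NI and sham mice it was 3.03 with an interval of 2.79 to 3.27, or 8.15-fold. These comparisons share the sham mice and are therefore not independent. Across all genes, 1179 of 18820 (6.26%) passed an adjusted p of 0.05 in limma between MCT and sham mice, and as many between MCT + NI and sham mice (6.26%). Thbs1 was the only member among them in either comparison, which the choice of the genes does not allow to be read further. Only Prnd, Apln and Cdkn1a had a larger rise than Thbs1 between MCT and sham mice, with 4.39, 3.69 and 3.45 on the log2 scale, and the next gene, Gm4841, had 3.00. Prnd encodes the prion-like protein doppel, Apln the ligand of the apelin receptor and Cdkn1a the cell cycle inhibitor p21. The same genes preceded Thbs1 between MCT + NI and sham mice. The median absolute difference over all genes between MCT and sham mice was 0.10.

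Between MCT + NI and MCT mice, Thbs1 differed by -0.18 with a 95% interval of -0.42 to 0.06, and MCT + NI mice 615 and 617 lay above MCT mouse 641. No gene passed the adjusted threshold in this comparison (0%), in limma or under any other setting run, and 545 genes had an unadjusted p under 0.05. The interval leaves room for a Thbs1 level in MCT + NI mice between 0.749 and 1.04 times that in MCT mice. Leaving out each mouse in turn moved the difference of Thbs1 between MCT and sham mice only within 3.11 to 3.31, and that between MCT + NI and sham mice within 2.96 to 3.08.

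Thbs2, a trimer-forming relative of Thbs1 that also restrains vessel growth and binds matrix metalloproteinase 2, had 7.04, 6.95 and 6.79 in MCT + NI mice 615, 617 and 619, 6.97, 7.06 and 7.0 in MCT mice 640, 641 and 644, and 6.94, 6.82 and 6.63 in sham mice 620, 624 and 625. All MCT mice lay above all sham mice, as they did for 11.7% of all genes. Thbs2 was thus the only member beside Thbs1 with these groups separate, but the gap was 0.03, and the MCT + NI mice spanned both. The difference of Thbs2 between MCT and sham mice was 0.21 ± 0.0912 (SE; 95% interval 0.01 to 0.42), or 1.16-fold. Between MCT + NI and sham mice it was 0.13 (-0.08 to 0.33) and between MCT + NI and MCT mice -0.08 (-0.29 to 0.12).

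Thbs3, a pentameric member known from cartilage and, in mice, from cardiomyocytes, had 5.95, 5.67 and 5.82 in MCT + NI mice 615, 617 and 619, 5.81, 5.81 and 6.19 in MCT mice 640, 641 and 644, and 5.72, 5.36 and 5.84 in sham mice 620, 624 and 625. All 3 groups overlapped. Its highest values in the MCT and MCT + NI groups were in mice 644 and 615, which had high atrial transcripts. Atrial transcripts were high in every sham mouse, but Thbs3 was not uniformly high there. Sham mouse 625 (5.84) exceeded every treated mouse low in these transcripts. Sham mouse 620 (5.72) exceeded only mouse 617 (5.67) of them, and sham mouse 624 (5.36) exceeded none. The part of atrial tissue in the level of Thbs3 was not tested beyond the fit with a covariate. The difference between MCT and sham mice was 0.29 (95% interval -0.05 to 0.63), that between MCT + NI and sham mice 0.17 (-0.17 to 0.51) and that of MCT + NI from MCT mice -0.12 (-0.46 to 0.22). With the atrial mean as a covariate MCT mice differed from sham mice by 0.51 ± 0.167 (SE), and MCT + NI mice by 0.41 ± 0.173. Without sham mouse 624 that between MCT and sham mice was 0.15. Without MCT mouse 644, MCT + NI differed from MCT mice by 0.00.

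Thbs4, the pentameric member found in heart and skeletal muscle, had 5.60, 6.31 and 6.00 in MCT + NI mice 615, 617 and 619, 5.94, 6.08 and 6.01 in MCT mice 640, 641 and 644, and 5.87, 6.31 and 6.08 in sham mice 620, 624 and 625. The 3 groups overlapped throughout, and the lowest value of all mice was in MCT + NI mouse 615. Its means were 5.97 ± 0.35 in MCT + NI, 6.01 ± 0.070 in MCT and 6.09 ± 0.22 in sham mice (SD, n = 3 each). The difference between MCT and sham mice was -0.08 (95% interval -0.46 to 0.31), between MCT + NI and sham mice -0.12 (-0.50 to 0.27) and between MCT + NI and MCT mice -0.04 (-0.43 to 0.35). Its sign turned with the mice included, the difference between MCT and sham mice ranging from -0.18 without sham mouse 620 to 0.04 without sham mouse 624. A change of Thbs4 of up to 0.46 downward or 0.31 upward between MCT and sham mice lies within the interval.

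**Figure D2:**
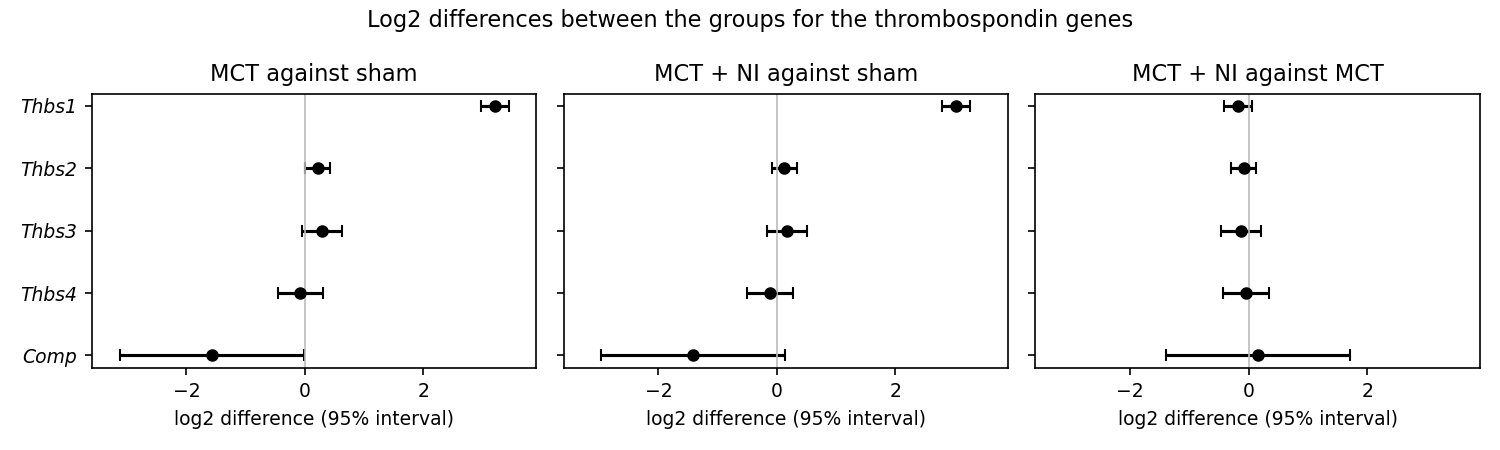
Log2 difference between groups (horizontal axis) with its 95% interval from limma for Thbs1 to Thbs4 and the related gene Comp, with a panel for each comparison. Thbs1 lay at 3.20 and 3.03 against sham with narrow intervals, Thbs2 to Thbs4 lay within 0.29 of 0 in all panels, and Comp had the widest intervals.

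Set against Thbs1 within each mouse, no other member came close to its change. The change of Thbs1 relative to the sham mean exceeded that of Thbs2 by 2.90 ± 0.062 in MCT + NI mice and 2.99 ± 0.25 in MCT mice (SD, n = 3 each). It exceeded that of Thbs3 by 2.86 ± 0.18 in MCT + NI mice and 2.91 ± 0.29 in MCT mice. It exceeded that of Thbs4 by 3.14 ± 0.36 in MCT + NI mice and 3.28 ± 0.27 in MCT mice. The smallest of these differences in any treated mouse was 2.67 (Thbs3 in an MCT mouse). Of all genes, 99.96% had a smaller absolute difference between MCT and sham mice than Thbs1, against 77.95% for Thbs2, 86.48% for Thbs3 and 41.45% for Thbs4. Within groups the members did not follow each other closely, the correlation of their deviations from the group means lying between -0.59 (Thbs3 with Thbs4) and 0.34 (Thbs1 with Thbs3) over the 9 mice.

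Comp, cartilage oligomeric matrix protein, is the family gene of another name and was not among the 4 members. It had 5.72, 4.13 and 4.49 in MCT + NI mice 615, 617 and 619, 3.84, 3.82 and 6.22 in MCT mice 640, 641 and 644, and 5.38, 6.71 and 6.49 in sham mice 620, 624 and 625. The mice high in Comp were those high in atrial transcripts, in all 3 groups. Its difference between MCT and sham mice was -1.57 ± 0.685 (SE; limma adjusted p = 0.249), and between MCT + NI and sham mice -1.41 (adjusted p = 0.307). Without MCT mouse 644 the first became -2.36 (adjusted p = 0.0393), and with the atrial mean as a covariate it became 0.04 (adjusted p = 0.977) and the difference between MCT + NI and sham mice 0.34 (adjusted p = 0.748). Fmod, the tendon and valve proteoglycan fibromodulin, had 6.14, 4.74 and 4.02 in MCT + NI mice 615, 617 and 619, 3.41, 3.74 and 6.58 in MCT mice 640, 641 and 644, and 4.80, 5.63 and 4.55 in sham mice 620, 624 and 625. It too was highest in mice 644 and 615 of their groups. For Thbs1, MCT mouse 644 lay between mice 640 and 641. Its difference between MCT and sham mice was 3.23 with the covariate and 3.20 without mice 644 and 615. Without these mice all treated mice were low and all sham mice high in atrial transcripts, so treatment and atrial tissue cannot be told apart there. The fit with the covariate rests largely on mice 644 and 615. The part of atrial tissue in the level of Thbs1 was not tested further.

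**Figure D3:**
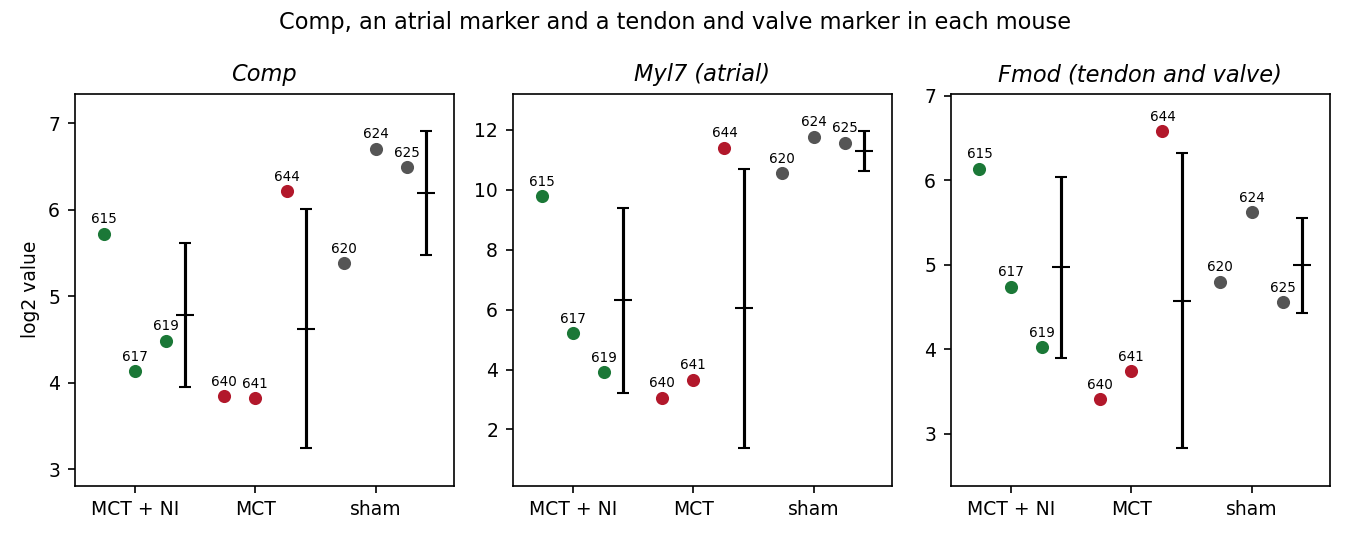
Log2 value of Comp, of the atrial light chain Myl7 and of the tendon and valve gene Fmod in each mouse (vertical axes, log2 units, each with its own scale), with mouse numbers and group mean ± SD. MCT + NI mouse 615 and MCT mouse 644 were the highest of their groups for all 3 genes, with 5.72 and 6.22 for Comp.

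Markers of cells that are known to make or store thrombospondins were set beside these values. Of 8 smooth muscle and pericyte markers, 5 were higher in MCT mice relative to sham mice and none was lower (62.5%, against 6.26% of all genes), and the mean of the list lay between 8.36 and 8.45 in MCT + NI, 8.32 and 8.54 in MCT and 7.99 and 8.04 in sham mice. Of 7 endothelial markers 2 were higher and none lower between MCT and sham mice (28.6%, differences from -0.67 to 0.74), and 3 were higher and 1 lower between MCT + NI and sham mice. Their list means overlapped, with 8.70 to 8.98 in MCT + NI, 8.85 to 8.92 in MCT and 8.65 to 8.95 in sham mice. Cdh5, the endothelial cadherin, was among those that were higher, with 10.73, 10.61 and 10.79 in MCT + NI mice, 10.67, 10.86 and 10.50 in MCT mice and 10.01, 9.82 and 9.98 in sham mice. Of 7 macrophage and monocyte markers 2 were higher between MCT and sham mice (28.6%), and 1 was higher and 1 lower between MCT + NI and sham mice, with list means of 7.19 to 7.63 in MCT + NI, 7.31 to 7.76 in MCT and 6.87 to 7.25 in sham mice. Of 8 fibroblast markers 2, the collagens Col1a1 and Col1a2, were higher and none lower between MCT and sham mice (25%). The differences of this list ranged from -0.26 to 0.97 (median 0.08). Pdgfra, the receptor that marks these cells, differed by -0.19 (limma adjusted p = 0.43), and Tcf21, also of the list, by -0.09 (adjusted p = 0.67). Platelets store much of the Thbs1 protein of blood, and of their 5 measured markers none passed, with list means of 4.81 to 5.0 in MCT + NI, 4.83 to 5.06 in MCT and 4.75 to 4.89 in sham mice. Pf4, platelet factor 4, had 6.66, 6.57 and 6.68 in MCT + NI mice, 6.59, 6.64 and 6.82 in MCT mice and 6.59, 6.11 and 6.33 in sham mice. The part of these cells in the level of Thbs1 was not tested.

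Of 23 receptors and binding partners of thrombospondins, 7 rose between MCT and sham mice and none fell (30.4%, against 6.26% of all genes), with a median difference of 0.19 against -0.02 over all genes. Between MCT + NI and sham mice 5 rose and none fell, and 3 rose with the atrial covariate. Between MCT + NI and MCT mice none passed, here and in all lists that follow. The receptors best known for Thbs1 did not pass. Cd36, the fatty acid transporter through which the type 1 repeats act on endothelium, had 11.57, 11.44 and 11.60 in MCT + NI mice, 11.51, 11.35 and 11.40 in MCT mice and 11.60, 11.44 and 11.64 in sham mice (-0.14 between MCT and sham mice, limma adjusted p = 0.266). Cd47, the receptor that binds the carboxyl end of Thbs1, had 8.88, 8.76 and 8.73 in MCT + NI mice, 8.87, 8.67 and 8.77 in MCT mice and 8.77, 8.73 and 8.82 in sham mice, an overlap of all groups (adjusted p = 0.988).

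The partners that rose were integrins and proteases. Itgb3, the integrin beta chain that binds the RGD motif of matrix proteins, had 5.34, 5.18 and 5.18 in MCT + NI mice, 5.23, 5.44 and 5.51 in MCT mice and 4.46, 4.55 and 4.75 in sham mice, and was 1.75-fold higher between MCT and sham mice (limma adjusted p = 0.00225). Its sham values lay below the median probe set of the arrays (4.77 to 4.79), which limits this fold rise. Itga6, an alpha chain of laminin receptors, rose 1.99-fold (0.99 ± 0.0854, SE), with the MCT + NI mice at 8.50 to 8.71, the MCT mice at 8.41 to 8.69 and the sham mice at 7.50 to 7.69. Mmp2, the gelatinase that Thbs2 clears from the cell surface, had 9.65, 9.43 and 9.51 in MCT + NI mice, 9.51, 9.81 and 9.21 in MCT mice and 8.42, 8.16 and 8.37 in sham mice, a 2.28-fold rise between MCT and sham mice (adjusted p = 0.00138). Adamts1, a protease with type 1 repeats that cleaves thrombospondins, had 6.96, 6.91 and 6.94 in MCT + NI mice, 7.15, 7.15 and 7.32 in MCT mice and 6.69, 6.79 and 6.64 in sham mice. It was 1.41-fold higher in MCT mice than in sham mice (adjusted p = 0.00216), while between MCT + NI and sham mice the difference was 0.23 (adjusted p = 0.0748) and between MCT + NI and MCT mice -0.27 (adjusted p = 1). Itgb1, Itga5 and Itga9 rose by 0.31, 0.39 and 0.49 on the log2 scale between MCT and sham mice.

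Thbs1 is known to activate latent TGF-beta, a cytokine that drives matrix production by fibroblasts. Of 11 ligands and latency proteins, Tgfb1 and Lrrc32 rose between MCT and sham mice and none fell (18.2%, median 0.08). With the atrial covariate neither passed, while the differences were 0.73 for Tgfb1 and 0.52 for Lrrc32. Tgfb1 had 8.28, 7.89 and 8.37 in MCT + NI mice, 8.33, 8.10 and 8.33 in MCT mice and 7.53, 7.55 and 7.72 in sham mice. Every treated mouse thus lay above every sham mouse, as all MCT mice did for 11.7% of all genes and all MCT + NI mice for 10.7%. The difference of Tgfb1 between MCT and sham mice was 0.65 ± 0.123 (SE, limma adjusted p = 0.0152), and between MCT + NI and sham mice 0.58 (adjusted p = 0.0263). The call between MCT and sham mice was lost without sham mouse 620 or 624 or MCT mouse 640 or 644 (adjusted p up to 0.0676) and with the atrial covariate (adjusted p = 0.0649). That between MCT + NI and sham mice was lost without sham mouse 620 or 624 or MCT + NI mouse 615 or 619 (adjusted p up to 0.1). Lrrc32, which holds latent TGF-beta at the cell surface, rose by 0.63 (adjusted p = 0.00752, and 0.0848 with the covariate). Tgfb2 differed by 0.07 (adjusted p = 0.683) and Tgfb3 by -0.02 (adjusted p = 0.927). The latency proteins Ltbp1 to Ltbp4 lay between -0.12 and 0.09, and none passed.

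Of 16 genes known to be induced by TGF-beta, 9 rose between MCT and sham mice and none fell (56.2%, median 0.40), and 5 rose when MCT mouse 641 was left out and 4 with the atrial covariate. In MCT + NI against sham mice 6 rose, but 3 without mice 644 and 615 and 1 with the covariate. The genes that rose included matrix proteins. Fn1, fibronectin, had 9.74, 9.29 and 9.51 in MCT + NI mice, 9.61, 9.76 and 9.41 in MCT mice and 7.99, 8.14 and 8.31 in sham mice, a 2.73-fold rise between MCT and sham mice (limma adjusted p = 0.000391). Col1a1 and Col3a1, fibrillar collagens, rose 1.96-fold and 2.26-fold between MCT and sham mice, and Postn, the matricellular protein periostin, 2.22-fold. The calls of Col3a1 and Postn were each lost without sham mouse 624 or MCT mouse 640 or 641, and that of Col3a1 also without sham mouse 620, with an adjusted p up to 0.0972 for Col3a1 and 0.0552 for Postn. With the atrial covariate the differences were about as large, 0.98 for Col1a1, 1.17 for Col3a1 and 1.29 for Postn, with wider errors (adjusted p = 0.0513, 0.138 and 0.0554 in that order). Other targets of the cytokine did not pass: Ccn2, connective tissue growth factor, differed by -0.32 between MCT and sham mice (adjusted p = 0.392) and by 0.00 with the atrial covariate, the inhibitor Smad7 by -0.42 and Tgfbi by -0.29.

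Among 19 other matricellular proteins, 5 rose and 1 fell between MCT and sham mice (31.6%, median 0.03), and 3 rose with the atrial covariate. Sparc, a collagen-binding protein, had 11.80, 11.68 and 11.72 in MCT + NI mice, 11.79, 11.92 and 11.54 in MCT mice and 10.32, 10.17 and 10.43 in sham mice, and rose 2.72-fold between MCT and sham mice (limma adjusted p = 9.44e-05). Tnc, the tenascin made in injured tissue, had 5.81, 4.88 and 5.75 in MCT + NI mice, 6.17, 5.28 and 5.26 in MCT mice and 3.74, 4.16 and 3.97 in sham mice, a 3.05-fold rise (adjusted p = 0.0146, and 0.0576 without sham mouse 620 and 0.115 with the atrial covariate, where the difference was 1.51 on the log2 scale). Both were thus higher in every treated mouse than in every sham mouse. Over all genes, all MCT mice were above all sham mice for 11.7%, and all MCT + NI mice for 10.7%. The changes of Sparc and Tnc on the log2 scale, 1.45 and 1.61, were less than that of Thbs1. The sham values of Tnc lay below the median probe set of the arrays (4.77 to 4.79), which limits its fold rise. Sparcl1, a relative of Sparc, rose by 0.59, Smoc2 by 0.49 and Postn by 1.15. Spock2, a proteoglycan of the same group, fell by 1.04 (adjusted p = 0.0464), a call that was lost without any single mouse other than MCT mouse 644 (adjusted p up to 0.163) and with the atrial covariate, where the difference was -0.55 (adjusted p = 0.292). It was highest among the MCT mice in mouse 644, with 5.15, 5.03 and 6.06 in mice 640, 641 and 644, against 6.21, 6.55 and 6.60 in sham mice 620, 624 and 625.

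**Figure D4:**
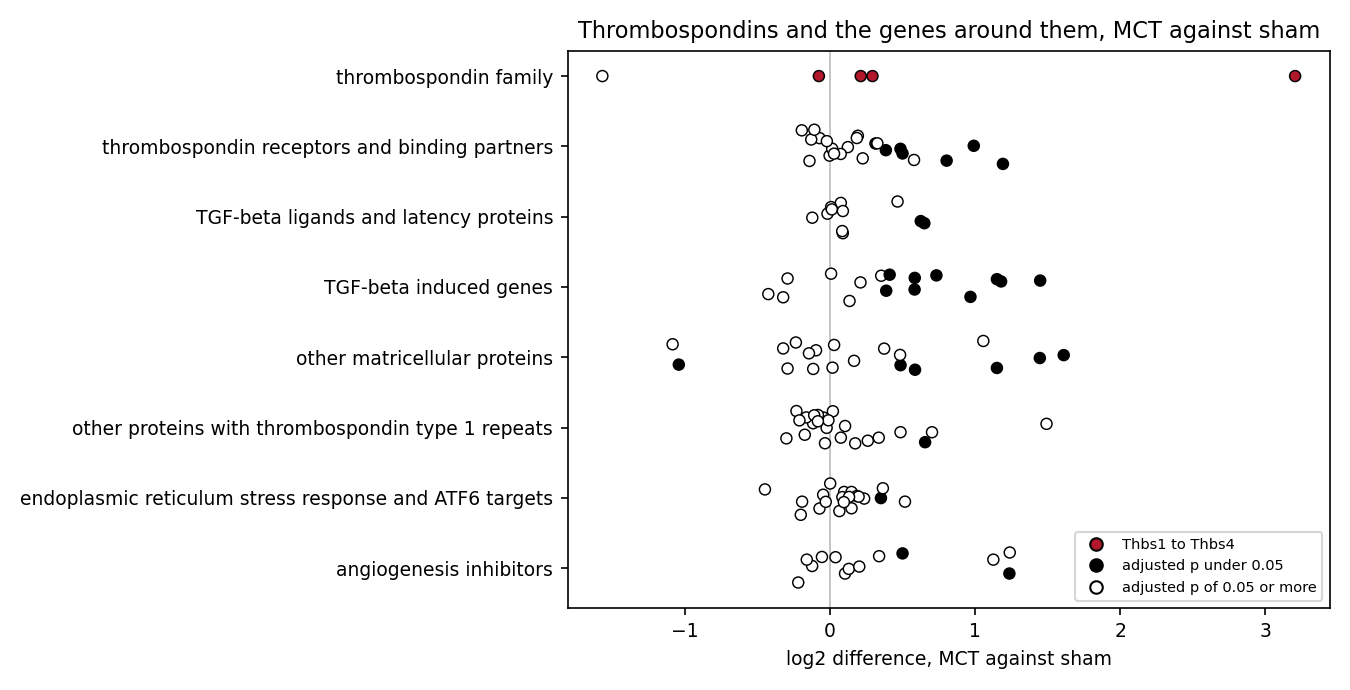
Log2 difference between MCT and sham mice (horizontal axis) for each measured gene of the lists named on the vertical axis, with a point per gene: red for Thbs1 to Thbs4, black for other genes with an adjusted p under 0.05 and white for the rest. Thbs1 at 3.20 lay outside the range of every other list, whose highest gene was Tnc at 1.61.

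A list of 23 other genes for proteins with the type 1 repeat left out the ADAMTS proteases, among them Adamts1, which rose as given above. Of the 23 genes listed, 1 rose and none fell between MCT and sham mice (4.35%, against 6.26% of all genes). Their median difference was -0.02, while 8 had an unadjusted p under 0.05. The gene that rose was Thsd1, a membrane protein of endothelium, by 0.66 (limma adjusted p = 0.00986, and 0.0858 with the atrial covariate, where the difference was 0.46), and without sham mouse 620 or 625, MCT mouse 641 or MCT + NI mouse 617 a further gene passed. In MCT + NI against sham mice 3 rose (13%), but 1 without sham mouse 624 or MCT + NI mouse 615 and 0 with the covariate. Spon2, a secreted protein with such a repeat, had the largest difference of the list, 1.49, and did not pass. The angiogenesis inhibitors gave 2 genes that rose of 13 (15.4%, median 0.13), Adamts1 and Col18a1, the collagen that contains endostatin. Col18a1 had 6.22, 6.12 and 6.27 in MCT + NI mice, 6.48, 6.47 and 6.04 in MCT mice and 5.23, 4.99 and 5.05 in sham mice, a 2.36-fold rise between MCT and sham mice (adjusted p = 0.00063).

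The endoplasmic reticulum stress genes were examined because of the link of Thbs4 to Atf6. Of 20 measured, 1 rose and none fell between MCT and sham mice (5%, median 0.10), and none passed between MCT + NI and sham mice. That gene was Pdia3, a protein disulphide isomerase, with a difference of 0.35 (limma adjusted p = 0.038), and its call was lost without sham mouse 620 or 624, MCT mouse 640 or 644, or MCT + NI mouse 615 or 619 (adjusted p up to 0.136). Atf6 had 9.24, 8.98 and 9.13 in MCT + NI mice, 9.13, 9.09 and 9.13 in MCT mice and 9.13, 9.23 and 9.13 in sham mice. Its groups overlapped, and so did those of Hspa5, the chaperone BiP, which had 10.87, 10.72 and 10.91 in MCT + NI mice, 11.14, 10.87 and 10.96 in MCT mice and 10.66, 10.88 and 10.99 in sham mice (adjusted p = 0.735 for Atf6 and 0.448 for Hspa5 between MCT and sham mice).

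Genes with a pattern like that of each member were sought among 9409 genes at or above the median level, by Pearson's r over the 9 mice, as a description. The genes most like Thbs1 were Prnd, Cdkn1a, Phlda3, Capg and Meox1, all with r of 0.99. The mice lie at separate levels for Thbs1, treated and sham, so this r records mostly that separation. Phlda3, a target of p53 that restrains Akt, had 7.22, 7.35 and 7.35 in MCT + NI mice, 7.47, 7.29 and 7.18 in MCT mice and 5.80, 5.76 and 5.72 in sham mice, and Cdkn1a, also a target of p53, had 9.40, 9.51 and 9.66 in MCT + NI mice, 9.53, 9.45 and 9.39 in MCT mice and 5.96, 5.71 and 6.33 in sham mice. By deviations from the group means, the genes most like Thbs1 were Brms1l, Cebpg and Ugcg (r = 0.97, 0.96 and 0.95), so no gene was named by both measures.

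The genes most like Thbs3 were Ecm1, an extracellular matrix glycoprotein (r = 0.97), and Cd300ld, Mpzl1, Ankrd10 and Mlf2, and by deviations from the group means Serpina3n, Abi3bp and Ecm1 (r = 0.98, 0.97 and 0.96). Ecm1 had 8.05, 7.51 and 7.76 in MCT + NI mice, 7.86, 7.73 and 8.33 in MCT mice and 7.48, 7.16 and 7.78 in sham mice. Like Thbs3, it was highest in mice 615, 644 and 625 of their groups and lowest in mice 617 and 624. For Thbs4 the most similar gene was Eloc, an elongin subunit (r = 0.98), followed by Coa3, Ptger4, Rtn4ip1 and Ints10, and by deviations Eloc, Slc41a1 and Coa3. For Thbs2 it was Depp1 (r = 0.92), followed by Ctdp1, Tor2a, Rps19 and Ldlrad3, and by deviations Bicra, Dxo and Ube2j1. The whole ranges over the mice were 0.43 for Thbs2, 0.83 for Thbs3 and 0.71 for Thbs4, so these lists rest on smaller steps than that of Thbs1, whose range was 3.53. Some of the genes named also had tied values. All MCT mice had 8.18 for Ube2j1, 6.09 for Dxo and 6.96 for Ints10, so their r rests on fewer distinct values than mice.

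The genes beside each member on the chromosome, taken in the order of the RefSeq annotation, did not share the change of Thbs1. This check was added after the values had been seen. The nearest measured genes, Fam98b and Rasgrp1 on one side and Fsip1 and Gpr176 on the other, differed between MCT and sham mice by 0.01, 0.17, -0.06 and 0.23, with limma adjusted p between 0.39 and 0.958. Beside Thbs2, the matricellular gene Smoc2 rose by 0.49 (adjusted p = 0.00776), while 4930474M22Rik, Wdr27 and 1600012H06Rik did not pass. Beside Thbs3, Fam189b, Mtx1, Mir92b and Muc1 did not pass. Beside Thbs4, the muscle gene Cmya5 fell by 0.27 (adjusted p = 0.0427), and Spz1, Serinc5 and Mtx3 did not pass.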

How the data were processed

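Right ventricular RNA of 9 mice was measured on Affymetrix mouse gene arrays, 1 per mouse. The authors deposited log2 values made by RMA (version not given in the sources used here), which corrects background, equalizes the arrays and summarizes probes. The methods name a redefinition of the probe sets by Entrez gene, whereas the deposited table carries 35556 manufacturer probe sets, so the values may differ from those the methods describe. Methods and labels also differ on the RNA kits and on the start of the diet. Of the probe sets, 12457 had no gene, 1881 several and 21218 had 1 gene. The brightest represented each of 18820 genes. Ties are frequent: 12042 genes had 1 value in at least 2 mice, and the number of arrays limits the precision. No genome build was named for the deposited values, so no coordinates are given. The order of neighbouring genes came from the RefSeq annotation of GRCm38.p6.

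All genes were fitted in limma 3.58.1 (R 4.3.3), with a mean for each group, the 9 mice together and variances moderated along the intensity. P-values are two-sided with Benjamini-Hochberg adjustment over all genes, and the threshold was 0.05. The procedure was tested on simulated data. The samples are separate mice.

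The members, the gene lists, the marker lists and the tests were chosen with earlier results of these data known. The lists hold 129 symbols, of which 124 were measured, and the marker lists 73, of which 66 were measured. Named genes were the members, Comp, Cd36, Cd47, the TGF-beta ligands, Ccn2, Atf6, Hspa5, up to 4 called genes with the largest difference per list and direction, and per member the 5 genes most correlated over the mice and the 3 most correlated in deviations from group means. Genes outside this rule (Prnd, Apln, Gm4841, Smad7, Tgfbi, Spon2, Smoc2, Itgb1, Itga5, Itga9, the latency proteins and the chromosomal neighbours) were chosen after their values were seen. A planned comparison of protein sequences was not run.

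Alternatives were no trend, robust variances, only the groups compared, the mean of the probe sets, only genes at or above the median level, quantile normalization, array weights and leaving out each mouse. The atrial mean as a covariate and the fit without mice 644 and 615 were chosen after seeing the data.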

Additional observations from a re-analysis of the deposited data

How the results depend on the processing

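Leaving out each mouse in turn gave between 676 (without MCT mouse 640) and 1196 called genes for MCT against sham mice, with 767 without MCT mouse 641, and between 625 (without MCT + NI mouse 619) and 1183 for MCT + NI against sham mice, with 682 without MCT + NI mouse 615, each against 1179 with all mice. With the atrial mean as a covariate the counts were 499 and 375. When MCT mouse 644 and MCT + NI mouse 615 were both left out, the count for MCT + NI against sham mice was 720. The atrial covariate also gave 0.41 for Thbs3 between MCT + NI and sham mice (0.17 without it) and 2.64 for the change of Thbs1 minus that of Thbs3 (2.86 without it). For Thbs3 between MCT and sham mice it gave 0.51 (0.29 without it), and leaving out sham mouse 624 gave 0.15. The causes were not tested. All other settings of the counts over all genes, of the members and of their differences from Thbs1 stayed within 1.5 times or within 1 SD of the values reported. The counts of the gene lists were less stable: 78 alternative counts moved beyond 1.5 times and 192 did not. Of the alternative values of other named genes, 83 lost a call, 9 gained one and 8 without a call moved by more than 1 SD. No paired analysis was possible because the mouse numbers are not shared between groups.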
